A study of Mus musculus with 2 samples.

Results

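The 6 genes described here, Fos, Egr1, Arc, Npas4, Plk2 and Dusp6, are genes that neurons switch on when they fire, and what was measured is the methylation of the CpG cytosines in and around them. They were chosen by name, each with a span of mouse build mm9 that holds the gene and its flanks, and a gain of methylation in the body of Plk2 was already known when they were chosen. The spans, in kilobases, are 86805 to 86825 of chromosome 12 for Fos, 35012 to 35032 of chromosome 18 for Egr1, 74490 to 74512 of chromosome 15 for Arc, 4977 to 4998 of chromosome 19 for Npas4, 111178 to 111198 of chromosome 13 for Plk2 and 98718 to 98738 of chromosome 10 for Dusp6. They hold 1216 analysed cytosines out of 2312276 in the whole data set, an analysed cytosine being one with a coverage of at least 10 calls in both libraries. Because the genes were chosen with results of the same 2 libraries known, their levels and differences are given as a description, with no test of the genes as a group.

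The libraries were made from hippocampal DNA of C57BL/6 mice by bisulfite sequencing after capture with a mouse Methyl-Seq bait set. The ATO library came from mice with developmental exposure to 5000 ppb arsenic trioxide in drinking water, begun before mating, carried through lactation and continued in the weaned offspring. The control library came from mice without treatment. There is 1 library per group, neither age nor sex is in the labels, and they do not say whether a library is 1 animal or a pool, so no difference below has a replicate check. Every statement compares these 2 libraries and not the conditions. In bulk hippocampal DNA, a change of methylation within cells and a change in the mix of cell types cannot be told apart.

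Immediate early genes are transcribed within minutes of synaptic activity, without new protein synthesis, and many are switched on through the factor CREB, which binds the cyclic AMP response element (CRE), and through the serum response factor. Fos, Egr1 and Npas4 encode transcription factors of this first wave, and Arc, Plk2 and Dusp6 encode proteins that act at synapses or in signalling. In the hippocampus several of these genes are widely used as marks of recently active neurons and several are needed for lasting memory. Their promoters are CpG-rich and, as at most such promoters, are normally free of methylation, while the DNA of gene bodies usually carries more.

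The starts of Fos, Npas4, Plk2 and Dusp6 were placed on the deposited positions by the spacing of the CpGs in their RefSeq promoter sequences. The match found 20 of 20 promoter CpGs for Fos, 21 of 21 for Npas4, 31 of 31 for Plk2 and 19 of 19 for Dusp6, each at a single place inside the gene's span. The starts lie at position 86814840 (plus strand) for Fos, 4989971 (minus strand) for Npas4, 111185252 (plus strand) for Plk2 and 98725865 (plus strand) for Dusp6. For Egr1 and Arc, distances were counted from the centre of the unmethylated CpG-dense stretch, at 35020750 (35019501 to 35022000, plus strand) for Egr1 and 74503000 (74502501 to 74503500, minus strand) for Arc. These 2 starts are approximate, and the strands of Egr1 and Arc are textbook knowledge.

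The 250 bases before the start of each placed gene are shown because elements through which activity reaches a gene can lie there. The libraries can also be read at many of their CpGs. The letters are those of RefSeq build GRCm38.p6 and run 5′ to 3′ on the gene's strand. In mm9 the CpG match puts them at chr12:86814590-86814839 for Fos, chr19:4989972-4990221 for Npas4, chr13:111185002-111185251 for Plk2 and chr10:98725615-98725864 for Dusp6. Capitals mark TGACG and its reverse complement CGTCA, the core of the CRE, and a run of both forms is the full element TGACGTCA.
Fos: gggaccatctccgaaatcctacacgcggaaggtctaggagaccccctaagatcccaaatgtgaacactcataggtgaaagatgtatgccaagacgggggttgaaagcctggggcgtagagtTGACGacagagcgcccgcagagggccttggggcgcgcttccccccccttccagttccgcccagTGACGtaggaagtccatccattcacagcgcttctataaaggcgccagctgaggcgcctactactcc
Npas4: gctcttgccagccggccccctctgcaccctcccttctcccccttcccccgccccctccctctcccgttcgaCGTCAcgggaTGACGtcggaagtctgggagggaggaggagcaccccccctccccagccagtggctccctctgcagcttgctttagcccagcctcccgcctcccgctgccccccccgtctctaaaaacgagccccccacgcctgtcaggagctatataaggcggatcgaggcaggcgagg
Plk2: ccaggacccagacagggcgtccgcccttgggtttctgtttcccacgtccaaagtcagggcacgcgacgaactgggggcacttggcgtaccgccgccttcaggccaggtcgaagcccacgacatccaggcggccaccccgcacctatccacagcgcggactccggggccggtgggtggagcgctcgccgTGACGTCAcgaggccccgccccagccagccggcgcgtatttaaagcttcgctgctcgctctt
Dusp6: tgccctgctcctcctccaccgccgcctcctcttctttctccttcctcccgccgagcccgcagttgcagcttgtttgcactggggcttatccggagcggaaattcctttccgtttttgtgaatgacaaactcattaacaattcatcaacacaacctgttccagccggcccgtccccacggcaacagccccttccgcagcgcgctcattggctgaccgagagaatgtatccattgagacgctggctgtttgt
Fos holds 2 cores, Npas4 holds 2 cores close together, Plk2 holds the full element, in which both forms of the core overlap, and Dusp6 holds none. Of all 32851 promoters in the RefSeq table, 17.8% hold a core on either strand within the same 250 bases and 1.55% hold the full element. A match to these letters is a description and not evidence of binding.

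The CREs of Fos and Plk2 were read without a methylated call in either library. At Fos, the CpGs of both cores, 126 and 63 bases before the start, were at 0% in ATO and 0% in control, with coverages of 50 and 51 in ATO and of 31 and 40 in control. At Plk2, the CpG in the full element, 59 bases before the start, was also at 0% in ATO and 0% in control, with a coverage of 24 in each library. The CRE cores of Npas4 had 1 or 2 calls and were not analysed, so their state is not known from these data.

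The rest of the promoter sequence was nearly free of methylation in both libraries as well. Over the promoter and the first 50 bases of the transcript, the mean level was 1.67% in ATO and 2.29% in control for Fos, 2.77% in ATO and 1.599% in control for Plk2, and 1.33% in ATO and 1.38% in control for Dusp6. No analysed CpG in these 3 sequences exceeded 10% in ATO or 11.1% in control. Over the 10766 placed promoters with at least 5 analysed cytosines, the median level was 2.05% in ATO and 2.03% in control. The promoter sequence of Npas4 had only 2 analysed cytosines, at 15.4% and 0% in ATO and at 4.17% and 4.35% in control.

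Seen over the whole spans, the cytosines of the 6 genes were more methylated in the ATO library, against a data set that leaned the other way. Their mean level was 22.04% in ATO and 16.2% in control, a difference of 5.83 percentage points (median 1.61, SD 12.9 over cytosines), and 659 were higher and 280 lower in ATO. Over all analysed cytosines the mean was 36.7% in ATO and 38.0% in control, a difference of -1.28 points. Among the 1216, 92 were called higher and 1 lower in ATO, that is 7.57% and 0.0822%, where a call is a two-sided Fisher exact test with an adjusted p under 0.05 and a difference of at least 25 points. Of all analysed cytosines, 0.916% were called higher and 1.73% lower, or 2.65% in either direction against 7.65% in the spans. The calls belong to the contrast by which the genes were chosen and support nothing by themselves.

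The difference was larger in cytosines that were partly methylated than in those with a mean level under 10%. The 354 cytosines whose mean over both libraries lay between 20 and 80% averaged 54.1% in ATO and 37.1% in control, and 303 were higher and 50 lower in ATO. In the same class over the whole data set, 613083 cytosines averaged 51.2% in ATO and 54.9% in control. All 92 higher calls and the lower call fell in this class, 26.0% and 0.282% of it. Over the data set, 3.18% of the class were called higher and 6.07% lower. That the calls fell in this class is nearly fixed by the rules and locates nothing. A call needs a wide gap and the class is set by the mean of the same libraries, so cytosines under 10% cannot be called. Over the whole data set, 19526 of 21186 higher calls and 37213 of 40040 lower calls fell in this class too. The 729 cytosines under 10% averaged 2.63% in ATO and 2.01% in control. Leaving out Plk2, which holds 48 of the higher calls, the partly methylated cytosines of the other 5 genes averaged 53.3% in ATO and 38.4% in control.

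By gene, the share of partly methylated cytosines that were higher in ATO was 20 of 24 for Fos, 77 of 84 for Egr1, 44 of 52 for Npas4, 47 of 66 for Arc, 98 of 107 for Plk2 and 17 of 21 for Dusp6. Neighbouring cytosines are read on the same fragments, so these counts are not counts of independent observations. Except for cytosines left out by the coverage rule, intervals below are 95% intervals that treat the calls of a fragment as fully shared. They cover counting error only, and may be too narrow for it, since reads copied by PCR are not independent molecules. They hold nothing of the variation between animals.

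**Figure D1:**
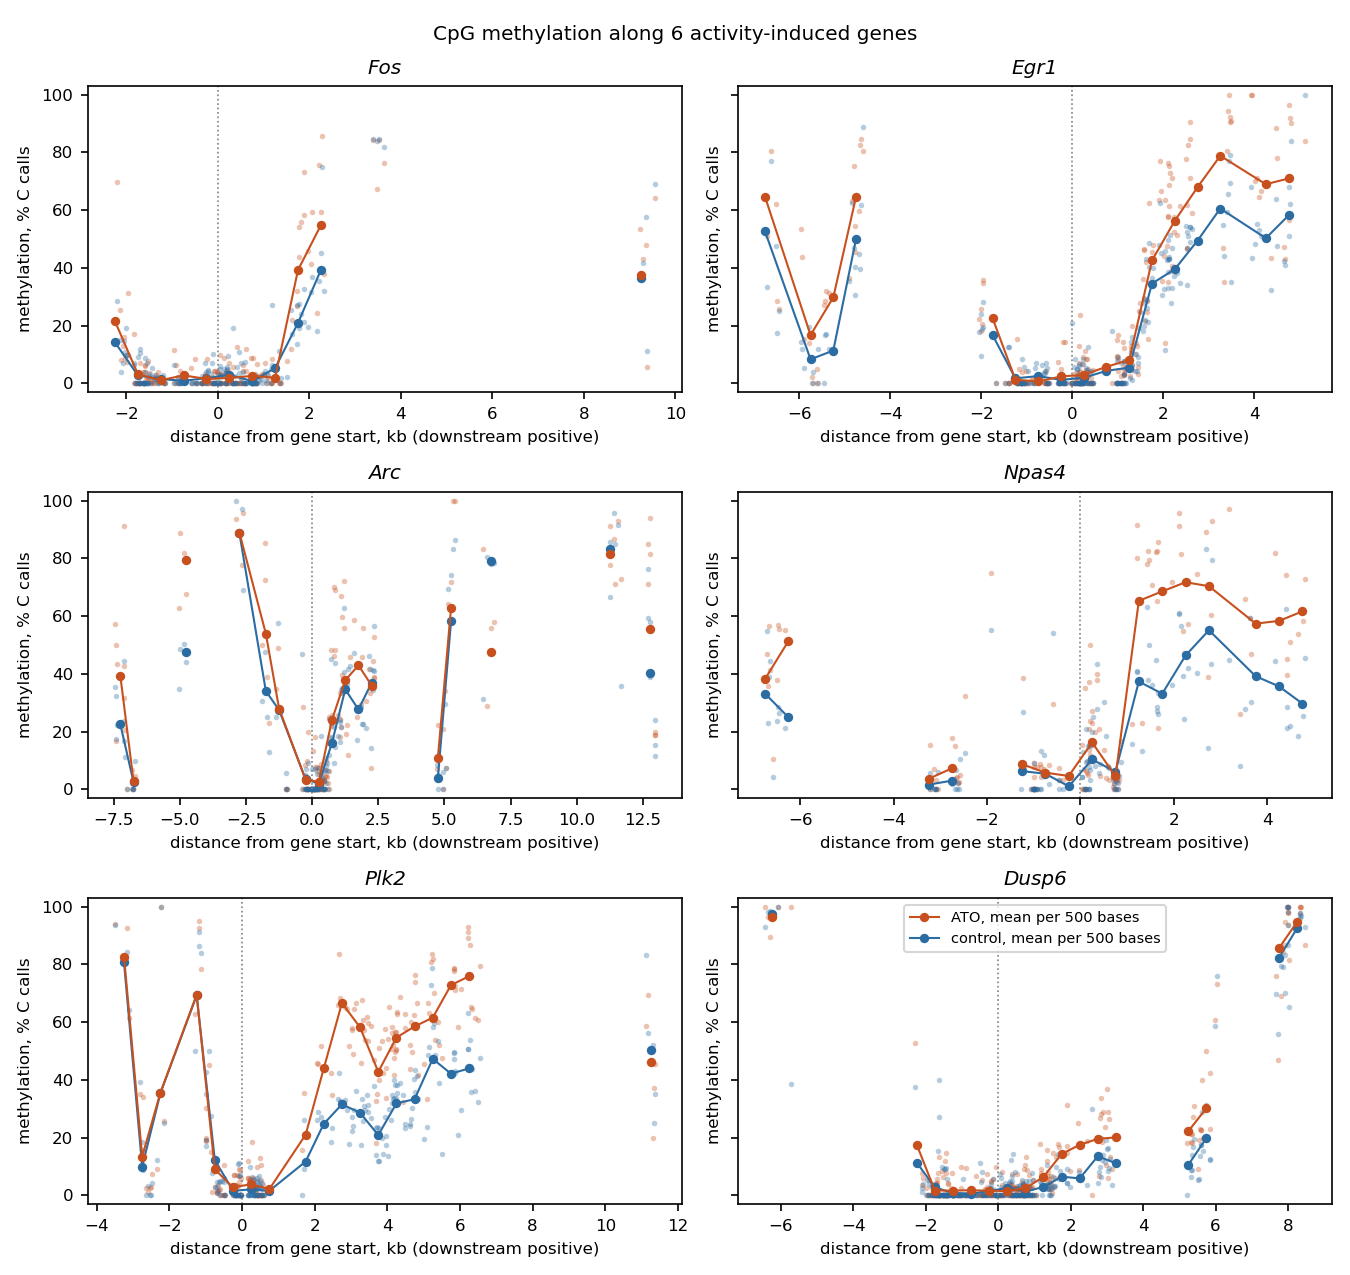
CpG methylation (percent of calls that are C) against the distance from the gene start in kilobases for each of the 6 genes, ATO in orange and control in blue. Small points are single cytosines, larger joined points are means over 500 bases (only stretches without a wide gap are joined) and the dotted line is the gene start; the libraries lie together near 0 around the starts of all but Npas4, whose promoter averaged 15.1% in ATO and 9.44% in control, and part downstream, most in Plk2 and Npas4.

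The profiles along the genes show a trough around each start, in which the libraries lie close together except at Npas4, and a climb on the downstream side that was steeper in ATO, most of all in Plk2 and Npas4. Within 500 bases of the start, mean levels were 1.77% in ATO and 2.50% in control for Fos, 2.82% in ATO and 1.75% in control for Egr1, 2.90% in ATO and 2.57% in control for Arc, 3.33% in ATO and 1.84% in control for Plk2 and 1.56% in ATO and 2.10% in control for Dusp6. Npas4 stood apart with 15.1% in ATO and 9.44% in control, but its difference of 5.70 points has an interval of -7.68 to 19.1. The cytosine 215 bases after its start was called, at 50% of 46 calls in ATO and 15.2% of 33 calls in control. Of the 92 cytosines called higher, 78 lay between 500 and 6500 bases downstream of a start, 1 lay within 500 bases of one and 13 lay elsewhere. By gene, the 78 are 46 in Plk2, 14 in Npas4, 9 in Egr1, 5 in Arc, 4 in Fos and 0 in Dusp6, out of 489 analysed in the 6 windows. In the same window of 5845 placed genes, 0.869% of analysed cytosines were called higher and 1.03% lower. In the 6 genes, partly methylated cytosines, the class in which the calls fell, also lay mostly in this window. They were 92 of 107 in Plk2, 34 of 52 in Npas4 and 62 of 84 in Egr1. For Arc they were 38 of 66, for Fos 17 of 24 and for Dusp6 13 of 21. The place of the calls is therefore partly set by where this class lies. That downstream window holds the gene bodies, but as gene ends were not placed it can run past the end of a short gene.

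**Figure D2:**
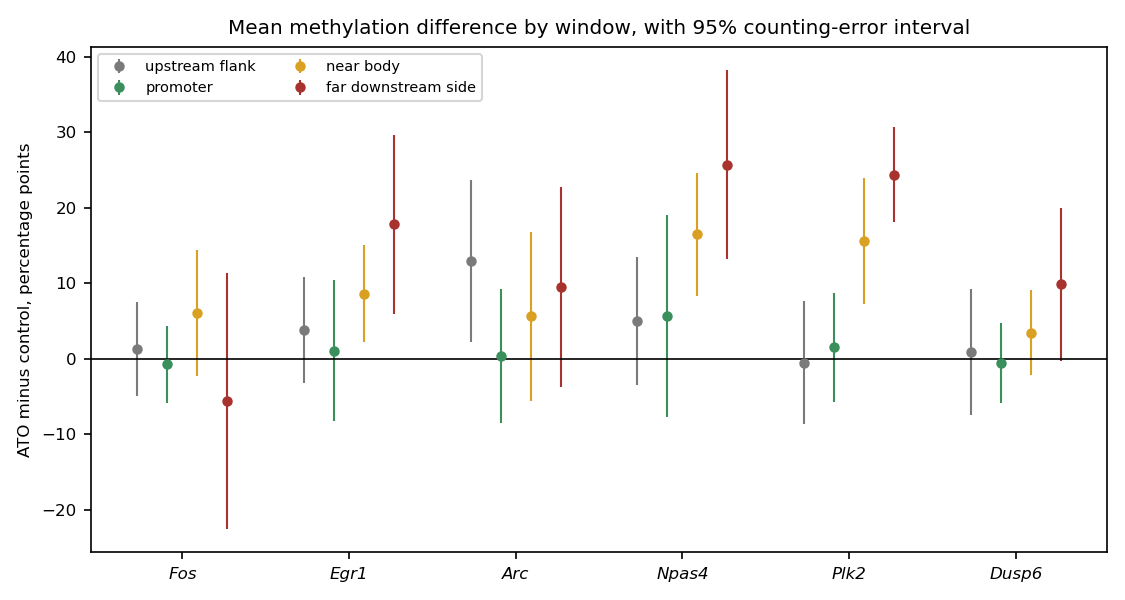
Mean difference in methylation, ATO minus control, in percentage points for 4 windows of each gene (upstream flank, 500 to 6500 bases before the start; promoter, within 500 bases of it; near body, 500 to 3000 bases after it; far downstream side, 3000 to 6500 bases after it). Bars are 95% intervals for counting error. The promoter intervals all include 0, and the near-body and far downstream intervals of Egr1, Npas4 and Plk2 lie above 0. Of the upstream-flank intervals, only that of Arc lies above 0.

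Among the transcription factor genes, Fos differed least over its span. It encodes the partner of Jun proteins in the AP-1 factor. Its 189 cytosines averaged 9.91% in ATO and 8.10% in control, a difference of 1.81 points (interval -2.39 to 6.01), and 81.5% of them in ATO and 79.4% in control were below 10%. From 500 to 3000 bases downstream the mean was 17.1% in ATO and 11.1% in control (difference 6.04 points, interval -2.28 to 14.4). Within that window the libraries differed most between positions 86816501 and 86817000 of chromosome 12, about 1.9 kilobases into the gene, where pooled calls were 51.3% methylated in ATO (38.4 to 64.8%) and 25.9% in control (15.3 to 39.0%). All 4 of its called downstream cytosines lie from 1809 to 2209 bases after the start. The one with the largest difference was at 73.2% of 71 calls in ATO and 32.6% of 92 calls in control. From 3000 to 6500 bases just 4 cytosines were analysed, and they averaged 78.1% in ATO and 83.7% in control.

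Egr1, a zinc-finger factor that is a classic mark of plasticity in the hippocampus, was higher in ATO from about 2 kilobases downstream onward. Its span averaged 24.5% in ATO and 18.3% in control over 243 cytosines (difference 6.22 points, interval 0.933 to 11.5). From 500 to 3000 bases downstream the levels were 32.6% in ATO and 24.0% in control (difference 8.63 points, interval 2.18 to 15.1). Ending that window at 2000 bases gives a difference of 4.14 points. From 3000 to 6500 bases they were 76.0% in ATO and 58.2% in control over 24 cytosines (difference 17.8 points, interval 5.93 to 29.6). The stretch between 35023001 and 35023500 of chromosome 18 was 66.7% methylated in ATO (58.0 to 73.8%) and 47.1% in control (38.4 to 56.8%). At 35024688 every one of 20 calls was methylated in ATO and 43.3% of 30 were methylated in control, the widest gap among its downstream cytosines. Coverage on this side of Egr1 was 1.20 times as high in ATO as in control, against 1.09 times over all analysed cytosines.

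Npas4, a factor that responds to calcium entry and shapes inhibitory synapses, showed the largest difference among the transcription factor genes. Its span averaged 28.6% in ATO and 17.9% in control over 131 cytosines (difference 10.7 points, interval 4.30 to 17.1). Its near body was at 44.7% in ATO and 28.3% in control (difference 16.5 points, interval 8.25 to 24.6), and the far downstream side at 59.4% in ATO and 33.7% in control (difference 25.7 points, interval 13.2 to 38.2). Of its 34 partly methylated cytosines downstream, 31 were higher in ATO, with means of 66.3% in ATO and 38.4% in control. At position 4988757 of chromosome 19, some 1214 bases into the gene, the level was 91.4% of 140 calls in ATO and 40.5% of 116 calls in control. From 4988501 to 4989000 pooled calls were 63.3% methylated in ATO (54.4 to 71.9%) and 34.9% in control (26.2 to 45.2%). The 500 bases nearer the start, from 4989001 to 4989500, were at 4.14% in ATO and 5.20% in control, so the libraries part within 1 such step.

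Arc, whose protein forms capsid-like particles and removes AMPA receptors from synapses, was mixed. Its span averaged 27.8% in ATO and 23.1% in control over 162 cytosines (difference 4.75 points, interval -2.84 to 12.3). Near the start of the body the level was 32.6% in ATO and 26.9% in control (difference 5.60 points, interval -5.57 to 16.8). All 5 of its called downstream cytosines lie from 811 to 1113 bases after the centre of the dense stretch, and at the first of these, 74502189 on chromosome 15, the level was 46.3% of 54 calls in ATO and 9.09% of 44 calls in control. Of its 38 partly methylated downstream cytosines 27 were higher in ATO. Arc was the gene among the 6 whose upstream flank differed most, with 54.2% in ATO and 41.3% in control over 17 cytosines (difference 12.9 points, interval 2.17 to 23.6). It also held the single cytosine called lower, 74496398, which was at 28.9% of 38 calls in ATO and 80.5% of 41 calls in control and lies 6602 bases downstream, beyond the window.

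Plk2, a kinase that weakens overactive synapses during homeostatic scaling, showed the largest difference of the 6 over the whole window from 500 to 6500 bases downstream, while Npas4 differed by more in each of its 2 parts taken alone. Its span averaged 33.8% in ATO and 22.1% in control over 207 cytosines (difference 11.7 points, interval 6.30 to 17.2). From 500 to 3000 bases downstream the level was 32.0% in ATO and 16.4% in control over 24 cytosines. From 3000 to 6500 bases it was 58.5% in ATO and 34.1% in control over 81 cytosines (difference 24.3 points, interval 18.05 to 30.6). The upstream flank was at 27.9% in ATO and 28.5% in control, so the difference lies on the downstream side. The near-body difference of 15.6 points depends on where that window ends, and it is 2.76 points when the window stops at 2000 bases, since most of its cytosines up to that distance lie close to the start.

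From about 2.5 kilobases into Plk2 nearly every cytosine was higher in ATO. Over 92 partly methylated cytosines on its downstream side the mean was 58.2% in ATO and 32.9% in control, 91 were higher in ATO, and the differences averaged 25.3 points with an SD of 9.73 over cytosines. The 9 tested bins of 500 bases from 111187501 to 111192000 of chromosome 13 were all higher in ATO. The widest gap was in the bin from 111191001 to 111191500, where pooled calls were 76.0% methylated in ATO (70.0 to 81.6%) and 41.2% in control (34.6 to 48.2%). At its upstream edge the run opened with 63.0% in ATO (52.4 to 73.7%) and 30.7% in control (20.2 to 42.5%) between 111187501 and 111188000. The bin from 111190501 to 111191000 was closest, with 62.1% in ATO (49.5 to 72.8%) and 50.1% in control (38.0 to 62.0%), and neither it nor the bin before it was called. Within the run, 1 well-covered cytosine, 111189672, was lower in ATO, at 32.5% of 154 calls in ATO and 34.6% of 179 calls in control. Coverage over this side was 1.08 times as high in ATO as in control, near the 1.09 of the whole data set.

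Dusp6, a phosphatase that switches off ERK signalling, had the lowest body methylation of the 6 and no called cytosine downstream. Its span averaged 13.1% in ATO and 10.8% in control over 284 cytosines (difference 2.25 points, interval -1.95 to 6.46). The near body was at 7.43% in ATO and 3.97% in control, and the far downstream side at 27.3% in ATO and 17.4% in control (difference 9.87 points, interval -0.279 to 20.02). Between 98728501 and 98729000 of chromosome 10 the level was 23.4% in ATO (15.6 to 32.2%) and 12.5% in control (6.41 to 21.3%). Its 1 called cytosine, at 98720146 upstream, is the sole forward-strand cytosine analysed in the 6 spans, at 100% of 16 calls in ATO and 38.5% of 13 calls in control.

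**Figure D3:**
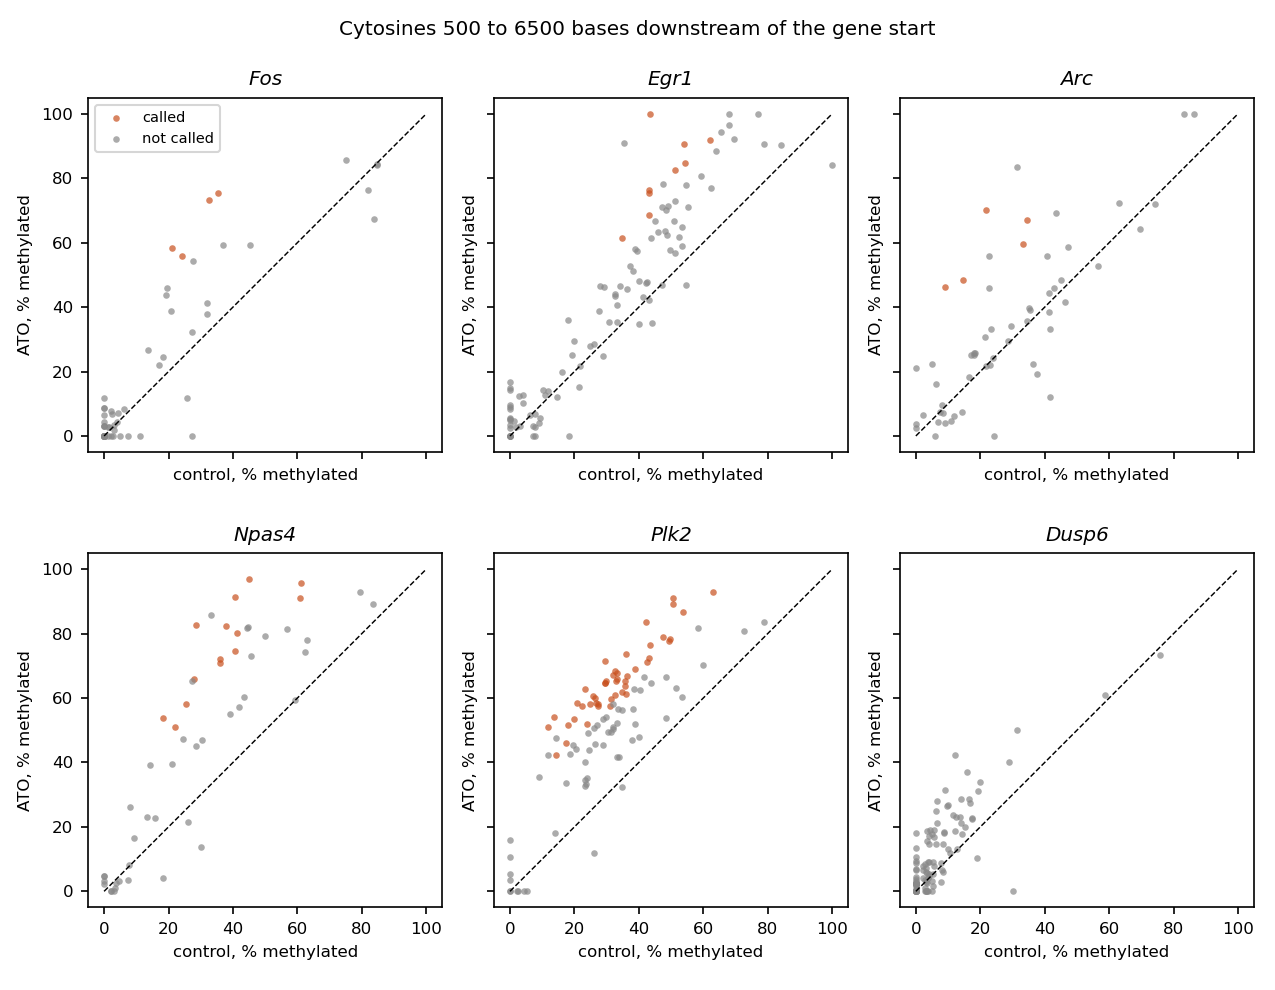
Methylation of each analysed cytosine 500 to 6500 bases downstream of the gene start, ATO on the vertical axis and control on the horizontal axis, both in percent of calls, 1 panel per gene. Orange points were called and grey ones were not, and the dashed line marks equal levels; the Plk2 points form a band above the line, and those of Arc lie on both sides of it.

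Set side by side over the whole downstream window, 4 of the genes lay within a few points in control and spread over a wider range in ATO. In control, Egr1 stood at 31.7%, Plk2 at 30.1%, Npas4 at 29.6% and Arc at 28.3%, with Fos at 15.99% and Dusp6 at 7.05% below them. In ATO the order was Plk2 at 52.4%, Npas4 at 48.3%, Egr1 at 42.4%, Arc at 34.7%, Fos at 21.2% and Dusp6 at 12.0%. Pooled calls weight each cytosine by its coverage, so their levels differ from these means. In control they were 34.5% for Egr1 (29.6 to 39.7%), 32.0% for Plk2 (28.5 to 35.7%), 29.8% for Npas4 (24.7 to 35.2%) and 25.8% for Arc (19.7 to 32.6%), and these intervals overlap. In ATO pooled levels were 57.5% for Plk2 (53.8 to 61.2%), 48.9% for Npas4 (43.3 to 54.6%), 44.7% for Egr1 (39.9 to 49.5%) and 33.8% for Arc (27.5 to 40.6%). The pooled interval of Plk2 in ATO lies above those of Egr1 and Arc and overlaps that of Npas4. As the Plk2 gain was known beforehand, this describes it and does not test it. The intervals of Npas4 and Egr1 overlap in ATO, and so do those of Egr1 and Arc.

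The difference over this window was 22.3 points in Plk2 (interval 16.9 to 27.8), 18.7 in Npas4 (10.8 to 26.6), 10.7 in Egr1 (3.88 to 17.5), 6.42 in Arc (-3.30 to 16.1), 5.25 in Fos (-2.90 to 13.4) and 4.93 in Dusp6 (-0.866 to 10.7). The interval of Plk2 lies above those of Arc, Fos and Dusp6 and overlaps those of Npas4 and Egr1. The gain in Plk2 was known when the genes were chosen, so the place of its interval is a description and not a test. For Arc, Fos and Dusp6 the interval includes 0, so a difference was not detectable at this depth with calls of a fragment taken as shared.

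Stretches of 500 bases that were called lay in Plk2 and Npas4. Of 78 bins tested in the spans, 9 were called higher and 0 lower, 7 of the 9 in Plk2 and 2 in Npas4, and of all 152175 bins tested 0.630% were called higher and 1.17% lower, 1.80% in either direction. To be called, a bin with 5 or more analysed cytosines had to differ by 20 points or more with an adjusted p under 0.05, on sums reduced for shared fragments. Bins with gaps of over 20 points in Fos, Arc, Npas4 and Plk2 were not called.

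Against all genes placed in the same way, the 6 genes lay on the upper side. Of 5845 genes with at least 20 analysed cytosines in the downstream window, 42.9% were higher in ATO and the median difference was -0.414 points. In 1.64% of these genes the window was higher in ATO by at least 10 points, and in 2.16% it was lower by as much; Plk2, Npas4 and Egr1 are the 3 of the 6 that were higher by that margin. Ranked from the highest difference, Plk2 was at place 5, Npas4 at 12, Fos at 335 and Dusp6 at 374 among the 5845, while Egr1 and Arc, placed in another way, were not ranked. As the genes were chosen with results of these libraries known, the ranks describe them and test nothing.

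**Figure D4:**
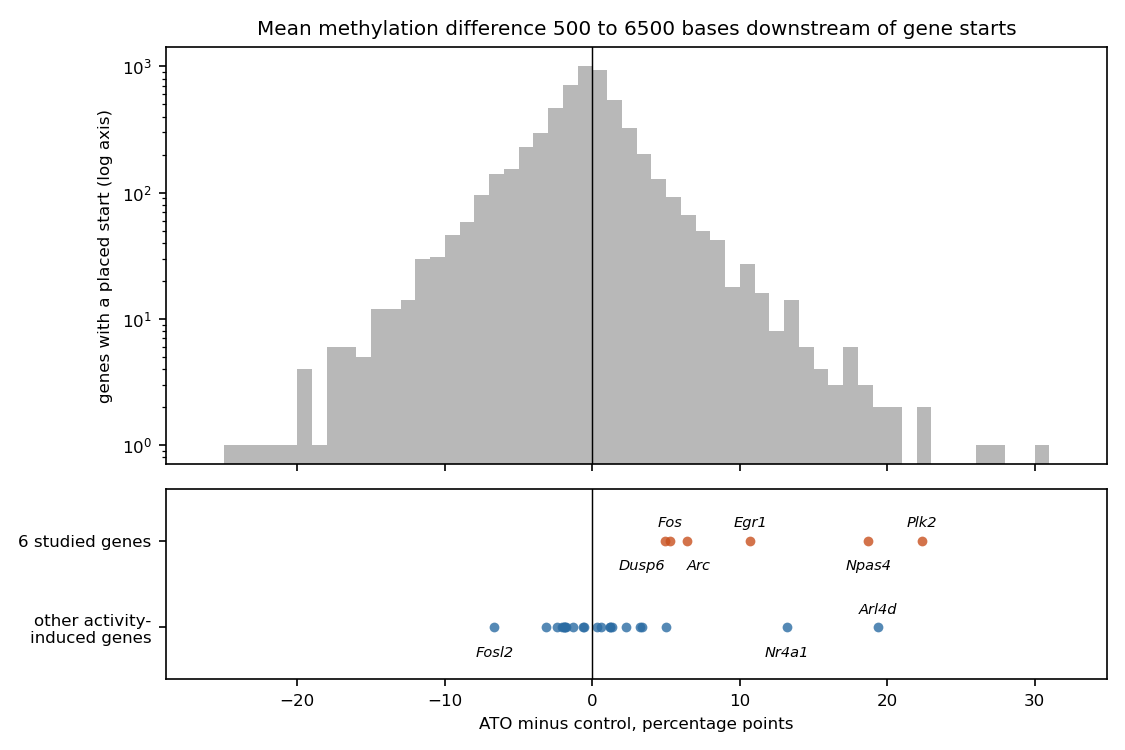
Mean methylation difference, ATO minus control, in percentage points 500 to 6500 bases downstream of gene starts. The upper panel counts all 5845 placed genes on a log axis and the lower panel marks the 6 genes (orange) and 22 other activity-induced genes (blue); the 6 all lie above 0, and 11 of the 22 lie above and 11 below it.

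Other genes of the activity-induced programme did not share the shift as a group. Of a list of 40 such genes, 27 were placed and 22 had enough analysed cytosines downstream. The median level of these windows was 11.5% in ATO and 13.6% in control, against 38.6% in ATO and 29.0% in control for the 6 genes. Their partly methylated cytosines ranged from 0 in Jun to 61 in Nr4a3, so some windows had little room to show a shift of that class. The median difference of the 22 was -0.130 points, with 11 higher and 11 lower in ATO, and of their 2148 cytosines 22 were called higher and 17 lower, shares near the 0.869% and 1.03% of all placed genes. Arl4d, which encodes a small GTPase of the ARF family, was at 53.3% in ATO and 33.9% in control, with 41 of 45 cytosines higher and 1 of 4 tested bins called. Nr4a1, an orphan nuclear receptor of the first wave, was at 36.4% in ATO and 23.2% in control, and Dusp1, a phosphatase related to Dusp6, at 28.1% in ATO and 23.1% in control. The 3 with the largest negative differences were Fosl2, an AP-1 subunit related to Fos, at 13.8% in ATO and 20.5% in control, Nr4a3, a relative of Nr4a1, at 15.7% in ATO and 18.9% in control, and Klf4, a zinc-finger factor, at 11.0% in ATO and 13.4% in control. The promoters of 23 of the listed genes had a median level of 2.09% in ATO and 2.07% in control. Of these, 22 in ATO and 21 in control were under 5%, and the highest was at 88.9% in ATO and 88.2% in control. Of their 447 cytosines 0 were called, against 0.171% in all placed promoters, and the set is too small to set apart from that share.

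Cytosines that the coverage rule left out give a view of the same downstream windows from other reads. Nearly all analysed cytosines are on the reverse strand, so the forward strand was read by few calls and at sites that differ between the libraries. At these forward-strand sites, 142 of 302 calls were methylated in ATO and 93 of 367 in control over the 6 genes, that is 47.0% (exact 95% interval 41.3 to 52.8%) in ATO and 25.3% (20.97 to 30.1%) in control. The intervals of left-out cytosines take every call as independent, so they are too narrow where calls share a fragment. Over all placed genes the forward strand stood at 41.0% in ATO and 41.6% in control. For Plk2 it was 17 of 27 calls in ATO and 7 of 48 in control, for Npas4 43 of 68 calls in ATO and 10 of 48 in control, and for Dusp6 13 of 45 calls in ATO and 2 of 53 in control. Fos had 47.6% in ATO and 43.3% in control, Egr1 45.1% in ATO and 30.8% in control, and Arc 33.3% in ATO and 25.8% in control, with intervals that overlap.

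**Figure D5:**
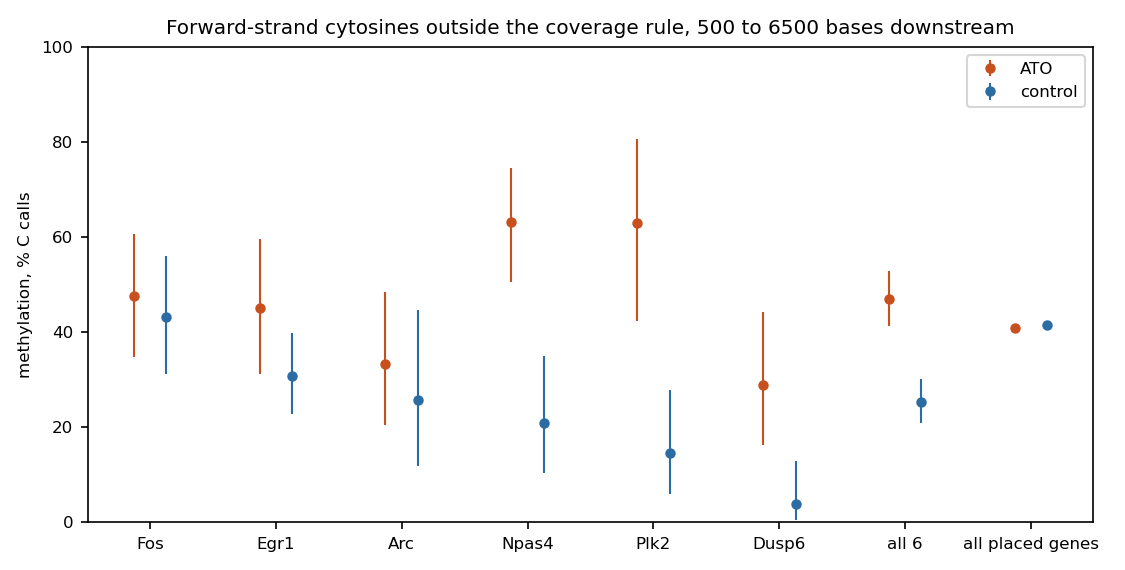
Methylation, in percent of calls, of forward-strand cytosines left out by the coverage rule, 500 to 6500 bases downstream of the start, for each gene, the 6 together and all placed genes, ATO in orange left of control in blue. Bars are exact binomial 95% intervals that take every call as independent, so they are too narrow where calls share a fragment. Drawn this way, those of Npas4, Plk2, Dusp6 and the 6 together do not overlap between libraries, which is a description only. All placed genes lie at 41.0% in ATO and 41.6% in control.

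The reverse-strand sites left out for low coverage were closer, with 164 of 628 calls methylated in ATO and 96 of 508 in control over the 6 downstream windows. By gene they went both ways. Npas4 had 62 of 120 calls in ATO and 28 of 109 in control, Arc 38 of 95 in ATO and 16 of 67 in control, Plk2 12 of 42 in ATO and 6 of 37 in control, and Egr1 20 of 186 in ATO and 13 of 132 in control. Fos was lower in ATO, with 29 of 130 calls in ATO and 26 of 96 in control, and so was Dusp6, with 3 of 55 in ATO and 7 of 67 in control, against the direction of its forward strand. At the edge of the coverage rule, the 141 cytosines of the spans whose lower coverage was 10 to 14 averaged 13.8% in ATO and 12.1% in control, and the 186 with 5 to 9 calls averaged 15.7% in ATO and 11.1% in control. Forward-strand calls within 500 bases of the Fos start were methylated in 21 of 70 in ATO and 1 of 41 in control. They came from 38 sites in ATO and 17 in control. In the placed promoter sequence of Fos, every forward site read had 2 calls in ATO and 0 in control, at 0% before the start and 100% after it. These forward calls are thus few and from differing sites, and give no promoter level to compare. Reverse-strand calls left out there were methylated in 5 of 75 in ATO and 2 of 44 in control. Over both strands, the left-out calls within 500 bases of the Npas4 start were methylated in 15 of 105 in ATO and 6 of 182 in control. Left-out calls on the upstream flank were methylated in 17 of 183 in ATO and 0 of 86 in control (exact 95% interval up to 4.20%) for Fos, and in 16 of 27 in ATO and 5 of 26 in control for Plk2. On that of Dusp6 they went the other way, with 61 of 496 in ATO and 100 of 404 in control. On the reverse strand of the Egr1 flank they were 48 of 179 in ATO and 17 of 148 in control. Its forward strand went the other way, with 10 of 89 in ATO and 8 of 47 in control. The strands of the Plk2 flank were opposed too. Its forward strand had 16 of 23 in ATO and 1 of 13 in control, and its reverse strand 0 of 4 in ATO and 4 of 13 in control.

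The libraries held 147924810 calls in ATO and 135987272 in control, of which 40.3% were methylated in ATO and 41.5% in control. Median coverage of an analysed cytosine was 44 in ATO and 41 in control, and 95.2% of analysed cytosines were on the reverse strand. In the 6 spans, 1216 of 2409 listed cytosines were analysed.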

How the data were processed

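CpG methylation was measured in 1 ATO and 1 control hippocampal library. Per the submitters' processing notes, reads were handled with bcl2fastq, Bismark 0.19.0 and Bowtie2 on mm9; what each tool did, trimming and duplicate removal are not stated. Per the file headers, each deposited table gives, for a cytosine and strand, the coverage as a count and C and T as a percent of it. Methylated calls were taken as the coverage multiplied by the share of C; all were whole within 0.005 points.

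The analysis used Python 3.11.15 with numpy 2.4.6, scipy 1.17.1 and pandas 2.3.3. Cytosines with a coverage of at least 10 in both libraries were kept, strands apart. Cytosines and 500-base bins were called with two-sided Fisher exact tests, Benjamini-Hochberg adjusted over the whole table; bin sums, and the intervals of differences, were reduced by the largest number of cytosines in 300 bases. Levels weight each cytosine alike. RefSeq promoters (GRCm38.p6) with at least 8 CpGs were placed where at least 90% of their CpGs were found at 1 place, 13802 of 15982. Scripts were tested on simulated data. Alternatives changed coverage, strand, weighting, thresholds, bins and windows. The 6 genes and the list of 40 were chosen with earlier results of these data known; of the list, the text names the 3 highest, the 3 lowest and any with a called bin.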

Additional observations from a re-analysis of the deposited data

How the results depend on the processing

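No paired analysis was possible because each group has 1 library, and for the same reason no replicate could be left out. Alternative values were compared with the counting-error interval of a difference, the quartiles over the listed genes for their medians, or 1.5 times a count. Of 167 alternative values, 163 stayed within these bounds and 4 moved. Some bounds are wide, as for the far downstream difference of Fos (-22.6 to 11.3), so staying within them is a weak check. The far downstream difference of Fos, -5.65 points over 4 cytosines, was -8.64 with a coverage minimum of 5. Of 144 values of single genes, 139 kept their sign, and the sign changes were all of differences close to 0. The downstream median of the 22 listed genes, -0.130 points, was 0.395 with a coverage minimum of 5 and 0.332 over 500 to 3000 bases. The 9 called bins of the spans became 14 with all calls counted and 4 with at least 10 cytosines per bin, where 41 bins were tested, all higher in ATO. The span difference of Plk2, 11.7 points, became 18.3 with each call weighted alike, and its near-body difference became 2.76 with that window cut to 500 to 2000 bases, which took the near-body difference of Egr1 to 4.14. The far downstream difference of Arc, 9.50 points, became 3.76 with a coverage minimum of 20 and 5.54 with each call weighted alike. Call weighting took the near-body difference of Fos, 6.04 points, to 9.24 and that of Arc, 5.60 points, to 8.52. Counts of called cytosines in the spans, 93 in all, stayed within 1.5 times that under every alternative run. Centring the partly methylated class on its median of -3.90 points raises the values of the 6 genes further. Forward-strand values rest on few calls, and bins with few deep cytosines could not be called even with wide gaps.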
